A study of Bos taurus with 12 samples.

Results

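Protein phosphatase genes of the cattle oocyte were followed through maturation in adult and prepubertal donors. The set was defined by gene symbol. It took every gene named as a catalytic or regulatory subunit of the phosphoprotein phosphatases PP1 to PP6 (PPP1 to PPP6), PPME1, the metal-dependent phosphatases PPM1, and the dual-specificity phosphatases DUSP. The array annotation gave 64 such genes with 94 probe sets, among 9155 genes with 13292 probe sets in all. The set held 25 genes of PP1, 12 of PP2A, 12 of the other PPP enzymes (PP3 to PP6), 6 of PPM1 and 9 of DUSP. Each gene was read from 1 probe set, the one with the highest mean over the arrays; 23 genes had several.

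Phosphatases reverse the work of the kinases that drive meiosis. PP1 and PP2A are small sets of catalytic subunits that gain their targets and places from many regulatory subunits, and both oppose cyclin-dependent kinase 1 when an oocyte leaves the germinal vesicle (GV) stage. PP2A bound to B56 subunits and shugoshin guards centromeric cohesin in the first meiotic division, and PP2A bound to B55 subunits is blocked in M phase by ENSA and ARPP19. Calcineurin (PP3) is the calcium-activated phosphatase, known in Xenopus eggs for its part in the exit from metaphase II (MII). DUSP enzymes remove phosphates from MAP kinases, which hold the MII arrest.

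The oocytes came from Japanese Black cattle, either adult cows from an abattoir or prepubertal heifers of 9 to 12 months whose ovaries were taken with a spay device. In both, follicles of 2 to 8 mm were aspirated, and oocytes were freed of cumulus cells and pooled by 50, so that each array mixed many oocytes. How many donors stood behind a pool is not stated in the labels. GV oocytes were taken right after aspiration, whereas MII oocytes had spent 20 to 22 h in maturation culture and showed a polar body, so maturation and culture cannot be told apart. Amplified and biotin-labelled cDNA was hybridised to 12 Affymetrix bovine arrays, 3 for each combination of stage and age, and values are the deposited log2 signals, on which 1 unit is a 2-fold change.

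The identity of the pools was checked with 9 oocyte genes on the array, such as GDF9, BMP15 and ZP2. On 9 arrays their median exceeded that of the whole array by 6.06 to 8.70 log2 units, and all 9 genes were above it. On GV prepubertal replicate 1, GV adult replicate 1 and MII prepubertal replicate 1 this gap was -0.36, 0.76 and 0.03, with 2, 7 and 5 of the 9 genes above the array's median. These 3 arrays lack the oocyte profile that their labels give. The summed linear signal of 16 cumulus and granulosa genes was 121400 on GV prepubertal replicate 1 and 206300 on MII prepubertal replicate 1, against 6418 on GV adult replicate 1 and 2102 to 16580 on the other 9. Each comparison was therefore fitted over all 12 arrays and over the 9 with an oocyte profile (GV prepubertal 2, GV adult 2, MII prepubertal 2, MII adult 3). Within the 9, cumulus gene signal was 2102 to 4289 in GV and 3351 to 16580 in MII pools, highest on MII adult replicate 3. The sum weighs bright genes most, and VCAN read 13.88 on that array. The median of the 16 genes minus the array's median was -0.46 there, within the -2.08 to 0.30 of the other 8. On the 9 arrays 10 theca and stroma genes summed to 401.5 to 2418 in GV and 288.7 to 974.1 in MII pools. MII adult replicate 3 also had the lowest Spearman correlation with its closest array, 0.553, against 0.612 to 0.852 for the other 8. The part of such RNA in the results was not tested, and a change in RNA per oocyte cannot be told apart from a change in the share of other cells.

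On the 3 arrays without an oocyte profile, the median of the 51 phosphatase genes that passed a filter on dim probe sets was 8.95 (GV prepubertal), 8.58 (GV adult) and 8.60 (MII prepubertal), within the 8.33 to 9.64 of the other 9. Minus the array's median of kept probe sets it was 0.47, -0.17 and 0.87, against 0.68 to 1.80 on the other 9. By that measure the GV arrays without an oocyte profile lay below the range and the MII array within it. Gene by gene, 20 lay below the lowest of the 9 oocyte arrays on GV adult replicate 1 (39.2%, against 19.0% of all probe sets) and 5 above the highest (9.8% against 32.7%). On MII prepubertal replicate 1, 17 lay below (33.3% against 18.7%) and 2 above (3.92% against 18.6%). On GV prepubertal replicate 1 it was 12 below (23.5% against 12.8%) and 4 above (7.84% against 24.8%). Each gene was read from its brightest probe set over 12 arrays, of which 9 were the oocyte arrays. The background probe sets were not chosen in that way, so the excess below cannot be read as a trait of the phosphatase genes. PPP1R2, PPP2CA, PPP6C, PPM1A, PPM1G, PPP1R35 and DUSP10 were below on all 3 arrays. DUSP1, the growth-factor-induced phosphatase of nuclear MAP kinases, went the other way on both prepubertal replicate 1 arrays, at 10.89 and 10.90 against at most 9.67 on the 9 arrays. PPP4R3A, a regulatory subunit of PP4, was also above the 9 arrays on both, at 10.69 and 11.05.

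**Figure D1:**
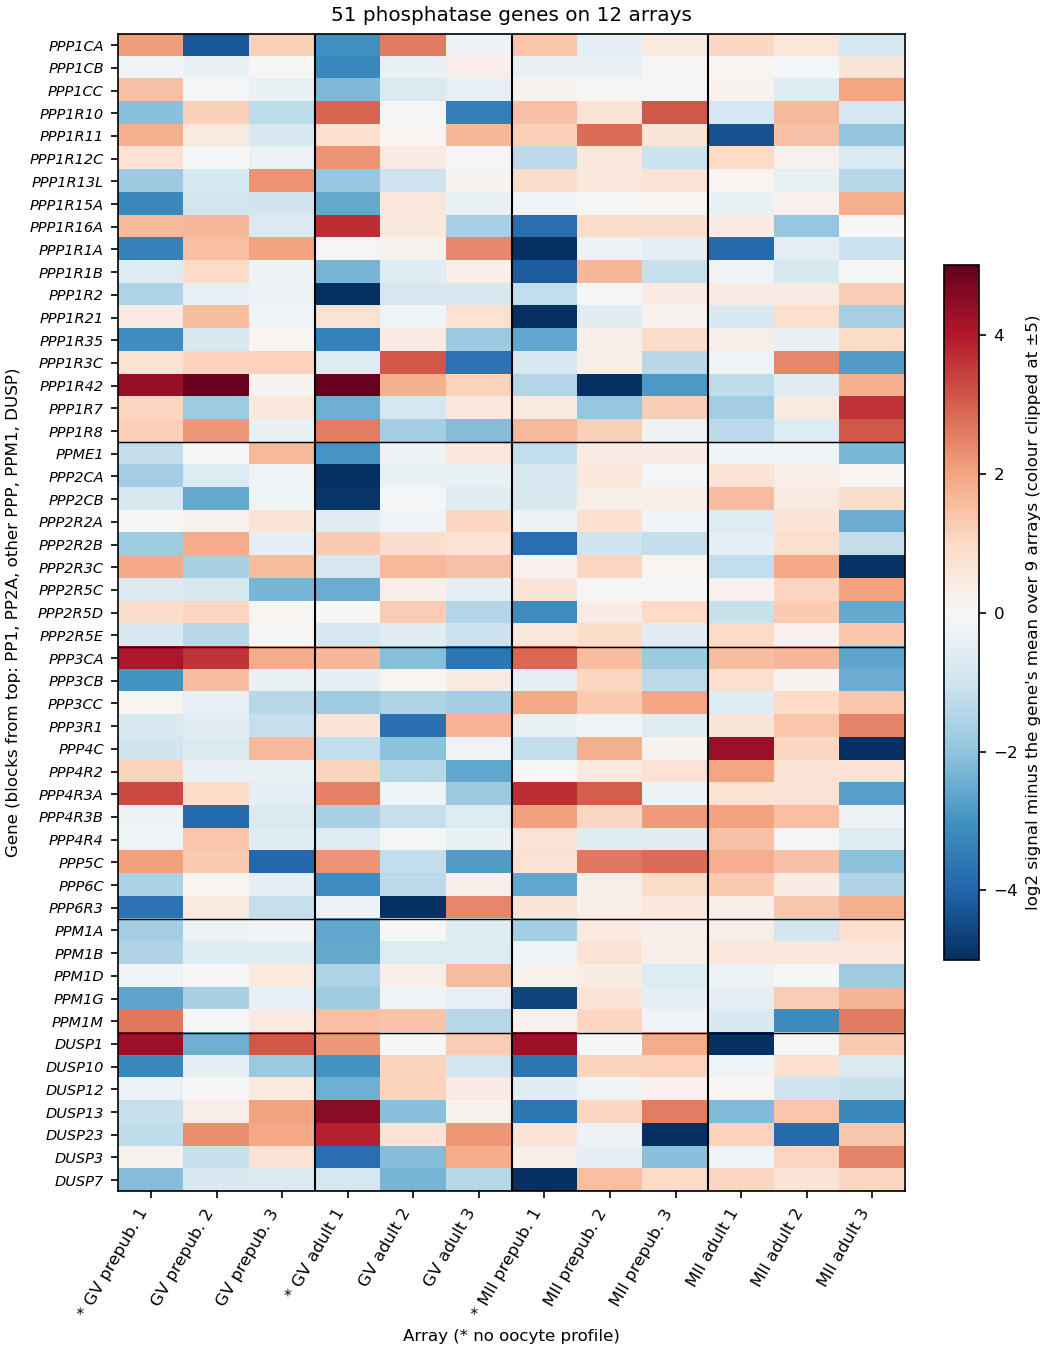
Each row is 1 of 51 phosphatase genes and each column 1 of the 12 arrays; colour gives the log2 signal minus that gene's mean over the 9 arrays with an oocyte profile, and arrays without it are starred. Blue cells gather on GV adult replicate 1 and MII prepubertal replicate 1, where 20 and 17 genes lay below all 9 oocyte arrays.

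The filter kept probe sets with a mean over 12 arrays above 5.57, which left 14409 probe sets and 51 of the 64 genes (79.7%, against 74.7% of all genes). All 12 genes of PP3 to PP6 passed, with 18 of 25 for PP1, 9 of 12 for PP2A, 5 of 6 for PPM1 and 7 of 9 for DUSP. The 13 that did not pass were PPP1R14D, PPP1R16B, PPP1R18, PPP1R27, PPP1R32, PPP1R3B, PPP1R3F, PPP2R1A, PPP2R5A, PPP2R5B, PPM1K, DUSP14 and DUSP26. DUSP14, PPP2R5A and PPM1K were just outside, with means of 5.54, 5.40 and 5.37, and PPP1R10, PPM1M and DUSP13 just inside, with 5.87, 6.02 and 6.16. Among those left out was PPP2R1A, the alpha scaffold of PP2A, which ran from 2.20 to 8.59 over the 12 arrays. Within groups the median SD of the 51 genes was 1.67 over 12 arrays and 1.14 over 9, against 1.86 and 1.498 for all kept probe sets. PPM1B had an SD within groups of 0.12 over the 9 arrays, PPP2CA of 0.32 and PPP1CB of 0.34, whereas PPP4C had 3.45 and DUSP1 2.86.

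Maturation was the first comparison, MII minus GV as the mean of both ages. No phosphatase gene passed limma's adjusted p threshold of 0.05, in either fit. Over the 9 arrays, 11 of the 51 genes differed at an unadjusted p under 0.05 (21.6%), against 14.1% of all kept probe sets, 8 of them higher in MII (8.19% of all probe sets were called higher) and 3 lower (5.93%). The higher genes were DUSP7, PPP4R3B, PPM1B, PPP3CC, PPP1R2, PPP4R2, PPP5C and PPP2CB, and the lower ones PPP1R42, PPP1R1A and DUSP23. Leaving out MII prepubertal replicate 3 reduced the 11 to 6. Over 12 arrays the count was 6 genes (11.8%, background 10.7%), of which PPP1R42, PPP4R3B, PPP3CC, PPP2CB and DUSP23 were also among the 11, and PPP2R5C was the sixth. The limma test called 104 probe sets (0.722%) at the adjusted threshold over the 9 arrays, none of them for a phosphatase gene, and 0 over the 12. With the replicate number as a block it called 15 over the 12.

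Direction differed by family. Of the 12 genes of PP3 to PP6, 10 read higher in MII over the 9 arrays, with a median difference of 1.18, against 48.2% of all kept probe sets and a median of -0.07. In PP1 it was 10 of 18 (median 0.17), in PP2A 4 of 9 (-0.29), in PPM1 3 of 5 (0.51) and in DUSP 4 of 7 (0.08). Over 12 arrays 10 of the 12 genes of PP3 to PP6 again read higher, with a median of 1.0003, against 44.3% of all kept probe sets. Median centring of the arrays moved the median of all kept probe sets from -0.07 to 0.38 and the share of higher probe sets to 60.7%, and 11 of the 12 then read higher. These counts have no test of their own, and the families were read with earlier results of these data known. The GV and MII values did not overlap for 8 of the 51 genes over the 9 arrays, against 7.36% of all probe sets. DUSP7, PPM1B, PPP1R2, PPP2CA, PPP2CB, PPP4R2 and PPP4R3B were higher in every MII array, and PPP1R1A was lower.

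**Figure D2:**
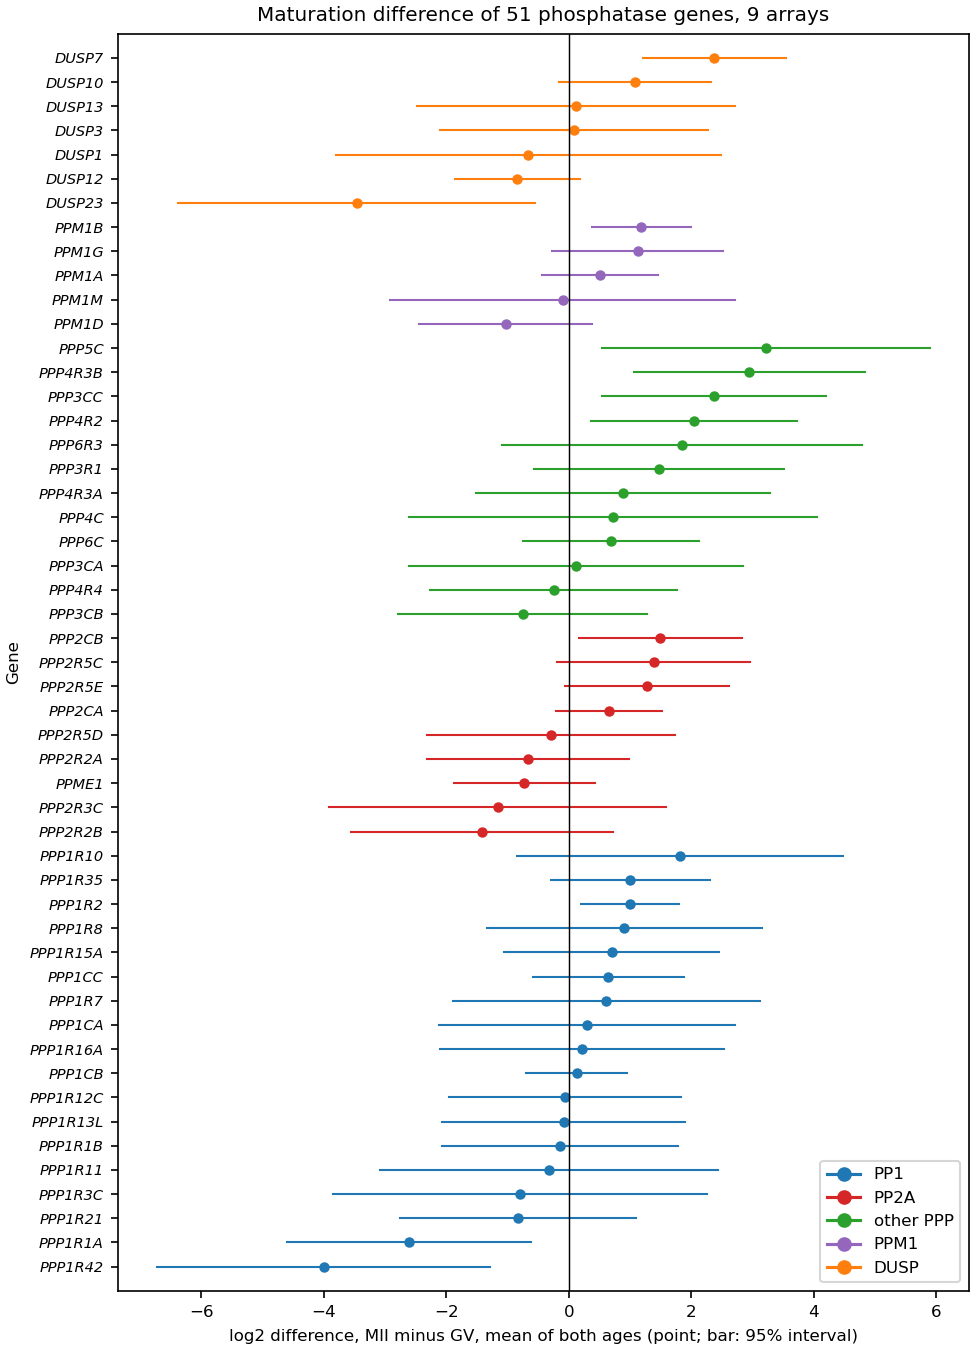
Points are the log2 difference of MII minus GV, mean of both ages, for 51 phosphatase genes in the fit over 9 arrays, with bars for 95% intervals and colours for families. Of the 12 genes of PP3 to PP6, 10 lie to the right of 0, and the intervals of 8 genes lie wholly above 0 and of 3 (PPP1R42, PPP1R1A and DUSP23) wholly below.

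The PP1 catalytic subunits showed no difference at an unadjusted p under 0.05. PPP1CB, the beta subunit, read 12.48 and 12.78 in GV prepubertal, 12.48 and 13.13 in GV adult, 12.48 and 12.86 in MII prepubertal, and 12.89, 12.77 and 13.41 in MII adult oocytes. These values lay within 1 unit of each other, and the maturation difference was 0.13, with a 95% interval from -0.70 to 0.95. GV adult replicate 1, without an oocyte profile, stood at 9.60. This narrow range belongs to the probe set used. Dimmer probe sets of PPP1CB ran from 8.32 to 11.68 and from 6.78 to 9.61 over the 9 arrays, with maturation differences of 0.79 and 0.18. PPP1CC, the gamma subunit, ran from 10.91 to 11.52 on the 4 GV arrays and from 10.98 to 13.58 on the 5 MII arrays, and its difference of 0.64 had an interval that held 0. PPP1CA, the alpha subunit, ran from 4.18 to 11.00 in GV and from 7.51 to 9.44 in MII oocytes, a spread that left its difference of 0.29 undetermined in sign.

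PP1 inhibitors differed in sign. PPP1R2 (inhibitor-2), which binds the catalytic subunit directly, read 12.54 and 12.67 in GV prepubertal and 12.11 and 12.17 in GV adult oocytes. In MII it read 12.89 and 13.35 (prepubertal) and 13.35, 13.32 and 14.20 (adult), so that every MII array of the 9 lay above every GV array. The difference was 0.998 (SE 0.38, limma unadjusted p = 0.0186, adjusted p = 0.246). The 3 arrays without an oocyte profile stood lower, at 11.41, 5.83 and 11.73. PPP1R1A (inhibitor-1), which blocks PP1 once protein kinase A has phosphorylated it, ran the other way. It read 10.16, 10.63, 8.82 and 11.04 on the 4 GV arrays and 8.35, 8.17, 4.80, 8.18 and 7.54 on the 5 MII arrays. The groups did not overlap, and the difference was -2.61 (SE 0.93, limma unadjusted p = 0.0138, adjusted p = 0.215). PPP1R1B (DARPP-32), its relative, gave -0.15 with an interval that held 0, at 7.63 to 9.18 in GV and 7.08 to 9.87 in MII oocytes.

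PPP1R42, a leucine-rich repeat protein that binds PP1 and was described in mouse testis, read 10.79 and 6.01 in GV prepubertal, 7.64 and 7.02 in GV adult, 0.79 and 2.99 in MII prepubertal, and 4.57, 5.26 and 7.68 in MII adult oocytes. Only MII adult replicate 3 overlapped the GV range, and the array with the highest value of all 12, at 12.72, was GV adult replicate 1, which had no oocyte profile. Of the 5 MII values, 4 lie under the filter value of 5.57, and detection calls were not used, so whether the MII signal stood above background was not determined. The difference was -4.005 over 9 arrays (SE 1.27, limma unadjusted p = 0.00684, adjusted p = 0.170) and -4.78 over 12 (SE 1.25, unadjusted p = 0.00112, adjusted p = 0.315). Leaving out each of the 9 arrays gave -5.20 to -2.81. Other PP1 regulatory subunits had intervals that held 0, among them PPP1R10 (PNUTS, 1.81), PPP1R8 (NIPP1, 0.91) and PPP1R7 (SDS22, 0.61), nuclear partners of PP1. So did PPP1R15A (GADD34, 0.70), which directs PP1 to the translation factor eIF2 alpha. PPP1R15A read 7.63 to 9.20 in GV and 8.32 to 10.44 in MII oocytes.

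PP2A catalytic subunits read higher in MII oocytes. PPP2CA, the alpha subunit, was 11.85 and 12.41 in GV prepubertal, 12.17 and 12.21 in GV adult, 13.07 and 12.43 in MII prepubertal, and 13.20, 12.81 and 12.64 in MII adult oocytes. The ranges met at 12.41 and 12.43 without overlapping, and the difference of 0.66 had an interval from -0.21 to 1.52 (limma unadjusted p = 0.127). PPP2CB, the beta subunit, read 8.45 and 10.77 in GV prepubertal, 10.91 and 10.37 in GV adult, 11.27 and 11.31 in MII prepubertal, and 12.53, 11.44 and 11.86 in MII adult oocytes. Its groups did not overlap, and the difference was 1.49 (SE 0.62, limma unadjusted p = 0.0308, adjusted p = 0.297). Over 12 arrays it was 1.97 (SE 0.88, unadjusted p = 0.0367), with GV adult replicate 1 at 6.14.

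No regulatory subunit of PP2A reached an unadjusted p under 0.05 in limma for the mean maturation difference over the 9 arrays. Of the B56 subunits, PPP2R5E and PPP2R5C gave 1.28 and 1.38 (unadjusted p = 0.0593 and 0.0799), and PPP2R5D gave -0.29 with an interval from -2.31 to 1.73. PPP2R5C ran from 7.35 to 9.98 in GV and from 9.68 to 11.70 in MII oocytes, overlapping at 1 GV array, and it reached an unadjusted p of 0.0359 over 12 arrays (difference 1.75, adjusted p = 0.438). The B55 subunits PPP2R2A and PPP2R2B gave -0.67 and -1.42, with intervals that held 0. PPME1, the esterase that removes the methyl group from the PP2A catalytic tail, read 12.25 to 14.13 in GV and 10.24 to 12.92 in MII oocytes, also with an interval that held 0.

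Calcineurin is a catalytic A subunit with a calcium-binding B subunit. PPP3CC, the gamma A subunit, read 7.85 and 6.89 in GV prepubertal, 6.73 and 6.54 in GV adult, 9.56 and 10.24 in MII prepubertal, and 7.64, 9.23 and 9.65 in MII adult oocytes. All MII arrays but MII adult replicate 1 lay above the GV arrays. The difference was 2.37 over 9 arrays (SE 0.86, limma unadjusted p = 0.0148, adjusted p = 0.221) and 2.27 over 12 (SE 0.78, unadjusted p = 0.0093, adjusted p = 0.374). MII prepubertal replicate 1 read 10.18, within the range of the oocyte arrays. PPP3CB, the beta A subunit, differed by -0.76 and PPP3CA, the alpha A subunit, by 0.11, both by less than 1 SE in size. PPP3R1, the B subunit, read 6.40 to 11.87 in GV and 9.51 to 12.59 in MII oocytes, with an interval that held 0.

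PP4 regulatory subunits gave 2 of the 8 genes higher in MII. PPP4R3B, a substrate-binding subunit, read 5.28 and 8.41 in GV prepubertal, 7.97 and 8.47 in GV adult, 10.19 and 11.27 in MII prepubertal, and 11.16, 10.65 and 8.89 in MII adult oocytes. The 3 arrays without an oocyte profile read 8.88 and 7.53 in GV and 11.20 in MII. Over the 12 arrays the stages did not overlap, but their ranges met at 8.88 (GV prepubertal replicate 1) and 8.89 (MII adult replicate 3). That separation held for 2 of the 51 genes, the other being PPM1B, and for 0.951% of all kept probe sets. The difference was 2.95 over 9 arrays (SE 0.88, limma unadjusted p = 0.00461, adjusted p = 0.147) and 2.80 over 12 (SE 0.83, unadjusted p = 0.00306, adjusted p = 0.345). Leaving out each of the 9 arrays gave 2.17 to 3.73. PPP4R2, the core regulatory subunit, read 8.51 and 8.48 in GV prepubertal, 7.41 and 6.23 in GV adult, 9.33 and 9.53 in MII prepubertal, and 10.78, 9.60 and 9.55 in MII adult oocytes. It was higher in every MII array of the 9, by 2.04 (SE 0.78, limma unadjusted p = 0.0202, adjusted p = 0.253). GV prepubertal replicate 1 and GV adult replicate 1 both read 9.94, and over 12 arrays the difference was 1.19 (unadjusted p = 0.160). PPP4C, the catalytic subunit, read 6.67 to 10.34 in GV and 2.88 to 13.01 in MII oocytes, so its difference of 0.72 was far inside its error.

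PP5 and PP6 each have their own catalytic gene. PPP5C, whose product binds HSP90 through tetratricopeptide repeats, read 8.29 and 3.06 in GV prepubertal, 5.77 and 4.17 in GV adult, 9.64 and 9.77 in MII prepubertal, and 8.78, 8.43 and 4.95 in MII adult oocytes. MII adult replicate 3 fell within the GV range, and the other 4 MII arrays lay above it. The difference was 3.22 over the 9 arrays (SE 1.25, limma unadjusted p = 0.0215, adjusted p = 0.260) but 1.63 over 12 (unadjusted p = 0.196), where both GV arrays without an oocyte profile read above 9. PPP6C, the phosphatase of Aurora A, read 9.76 to 11.33 in GV and 9.58 to 12.38 in MII oocytes. Its difference of 0.69 and that of the scaffold PPP6R3 had intervals that held 0.

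PPM1 phosphatases work as single subunits that need magnesium or manganese. PPM1B, which acts on MAP kinase and cell cycle kinases, read 12.02 and 12.06 in GV prepubertal, 11.97 and 11.99 in GV adult, 13.37 and 13.01 in MII prepubertal, and 13.21, 13.20 and 13.18 in MII adult oocytes. The 4 GV arrays spanned less than 0.1 unit, and every MII array lay above them. The difference was 1.18 (SE 0.38, limma unadjusted p = 0.00692, adjusted p = 0.171), and the SE comes from a variance that limma shares across probe sets. Leaving out each of the 9 arrays gave 1.09 to 1.27. Over 12 arrays the stages still did not overlap, since GV prepubertal replicate 1, GV adult replicate 1 and MII prepubertal replicate 1 read 11.17, 10.10 and 12.47. PPM1G read 9.11 to 10.56 in GV and 10.29 to 12.45 in MII oocytes, and PPM1D, the p53-induced phosphatase WIP1, 10.51 to 12.09 and 8.75 to 10.87. Both intervals held 0.

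Among the dual-specificity phosphatases, DUSP7 came nearest to the adjusted threshold of all the phosphatase genes. DUSP7 is a cytoplasmic phosphatase of ERK kinases, known in mouse oocytes for its part in meiotic resumption. It read 10.25 and 10.31 in GV prepubertal, 8.71 and 9.61 in GV adult, 12.51 and 11.98 in MII prepubertal, and 12.07, 11.70 and 12.06 in MII adult oocytes. All 5 MII arrays lay above all 4 GV arrays by more than 1 unit. The difference was 2.37 (SE 0.55, limma unadjusted p = 0.000602, adjusted p = 0.0605). It passed the adjusted threshold with quantile normalization (adjusted p = 0.0491), with a filter at the 60th percentile (0.0468) and without MII adult replicate 3 (0.0345). It did not pass with median centring (0.168) or no filter (0.0673). Nor did it pass without MII adult replicate 1 (0.141) or 2 (0.108), or without any 1 of the other oocyte arrays. Over 12 arrays the difference was 1.07 (unadjusted p = 0.362), since MII prepubertal replicate 1, with the high cumulus gene signal, read 3.95.

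DUSP23, a small atypical member, read 9.06 and 8.68 in GV prepubertal, 7.40 and 8.96 in GV adult, 6.44 and 1.24 in MII prepubertal, and 7.91, 2.89 and 8.07 in MII adult oocytes. The low values, 1.24 and 2.89, came from 2 of the 5 MII arrays and lie under the filter value. Whether they stood above background was not determined. The difference was -3.46 (SE 1.37, limma unadjusted p = 0.0231, adjusted p = 0.266), and without MII prepubertal replicate 3 it was -2.16. DUSP10, which acts on p38 and JNK kinases, read 11.35 and 9.92 in GV prepubertal, 12.90 and 10.85 in GV adult, 12.90 and 12.95 in MII prepubertal, and 11.63, 12.59 and 11.05 in MII adult oocytes. Its mean difference of 1.09 had an unadjusted p of 0.0826 in limma. DUSP1 spanned 4.13 to 9.67 in GV and 1.45 to 8.41 in MII oocytes and DUSP3 6.49 to 10.52 and 6.55 to 11.13, with no order by stage.

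**Figure D3:**
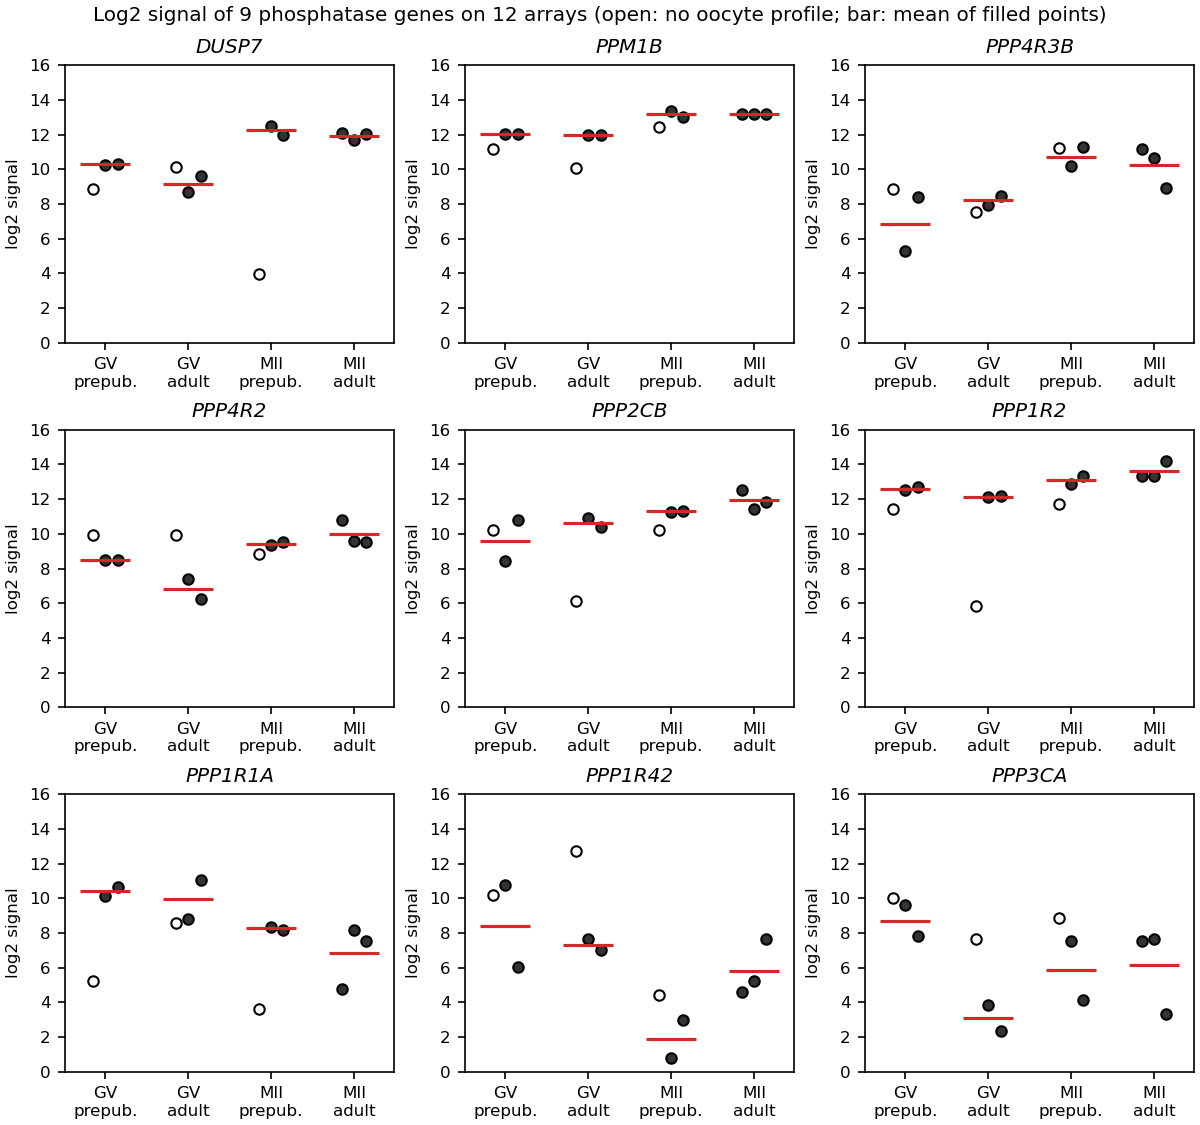
Each panel shows the log2 signal of 1 gene on every array by group; filled points are the 9 arrays with an oocyte profile, open points the 3 without it, and red bars the mean of the filled points. DUSP7, PPM1B, PPP4R3B, PPP4R2, PPP2CB and PPP1R2 have all filled MII points above all filled GV points, PPP1R1A the reverse, and PPP3CA is high in GV prepubertal and low in GV adult oocytes.

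Maturation was also compared at each age. In prepubertal oocytes 6 of the 51 genes differed at an unadjusted p under 0.05 over the 9 arrays (11.8%, background 6.99%), and 2 over 12 arrays (3.92%, background 3.41%). Over 9 arrays these were PPP4R3B (3.89), DUSP10 (2.29), DUSP7 (1.96) and PPP5C (4.03), higher in MII, and PPP1R42 (-6.52) and DUSP23 (-5.03), lower. The lowest adjusted p was 0.595, for PPP1R42. Over 12 arrays the 2 genes were PPP1R42 and PPP4R3B, and the count was 1 without GV prepubertal replicate 2 and 4 without MII prepubertal replicate 1. With 2 arrays a group the 9-array count rested on single arrays. It was 2 without GV prepubertal replicate 2, 3 without MII prepubertal replicate 2 and 1 without MII prepubertal replicate 3. The PPP5C difference was 1.41 without GV prepubertal replicate 3 (limma unadjusted p = 0.466), and that of DUSP10 1.57 (0.142). Without GV prepubertal replicate 2, PPP4R3B gave 2.32 (0.113) and PPP1R42 -4.13 (0.0611). Without MII prepubertal replicate 3, DUSP23 gave -2.43 (0.294), and without MII prepubertal replicate 2, DUSP7 gave 1.70 (0.153).

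In adult oocytes 6 genes differed at an unadjusted p under 0.05 over the 9 arrays (11.8%, background 11.4%), and 2 over 12 (3.92%, background 7.93%). Over the 9 arrays DUSP7 (2.78), PPP4R2 (3.15), PPP1R2 (1.49) and PPM1B (1.22) were higher in MII and PPP1R1A (-3.09) and DUSP12 (-1.45), an atypical member of the DUSP family, lower. PPP1R1A gave -1.98 without GV adult replicate 3 (limma unadjusted p = 0.225), and DUSP12 -1.07 without GV adult replicate 2 (0.209). DUSP7 had the lowest adjusted p in limma, 0.158, in a comparison where 17 of all kept probe sets passed (0.118%). Over 12 arrays the 2 genes were PPP1R2 (3.59) and PPP2CB (2.80), in which GV adult replicate 1 stood at 5.83 and 6.14, more than 4 units below the other GV arrays of adults. Without GV adult replicate 1 the 12-array count was 1, without GV adult replicate 2 it was 5, without GV adult replicate 3 it was 7 and without MII adult replicate 2 it was 4. Without MII adult replicate 3 the count over the oocyte arrays was 9.

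The maturation differences at the 2 ages share no arrays. Over the 9 arrays 38 of the 51 genes had the same sign at both ages (74.5%), 25 higher and 13 lower in MII, against 62.5% of the 14409 kept probe sets. The Pearson correlation of the differences was 0.402 across the 51 genes and 0.330 across all kept probe sets. This is a description across genes of 1 platform, which are not independent replicates. PPP5C, PPP4R3B, PPP3CC and DUSP7 were higher in MII by about 2 units or more at both ages. Lower in MII by about 2 units or more at both ages were PPP1R1A and DUSP23. PPP1R11 (inhibitor-3) and PPP2R3C read higher in MII in prepubertal and lower in adult oocytes, with intervals at both ages that held 0.

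**Figure D4:**
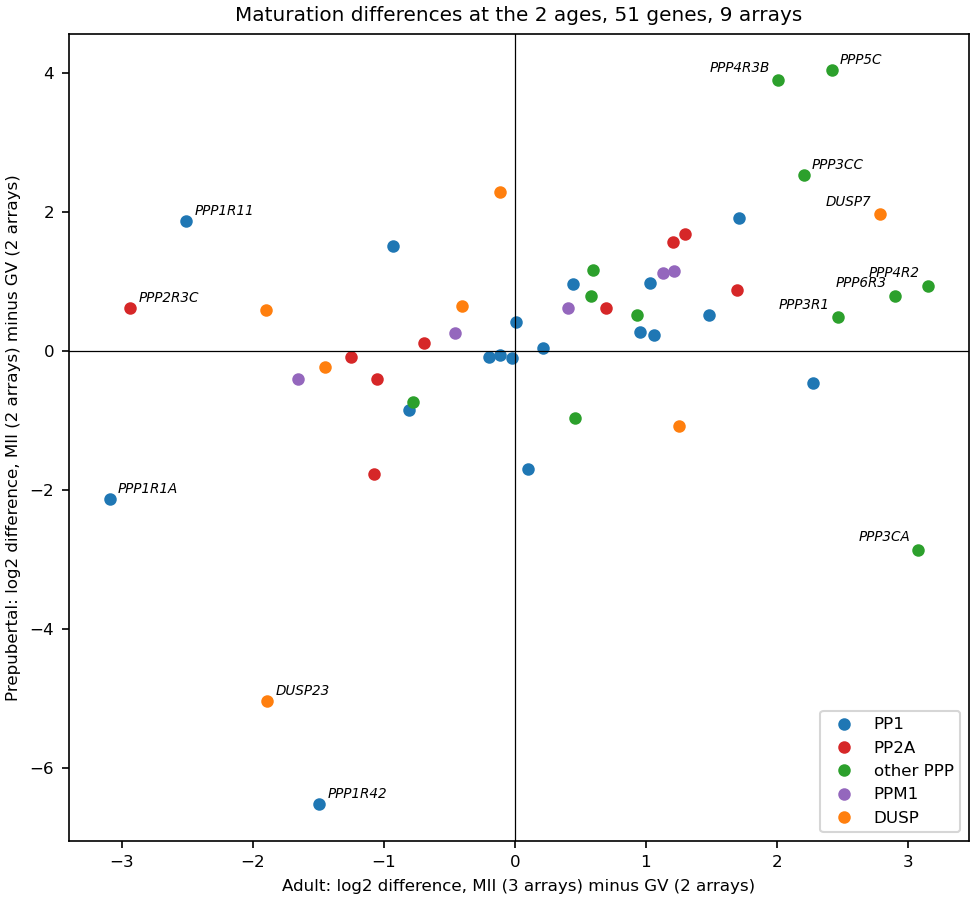
Each point is 1 of 51 phosphatase genes, with the adult maturation difference (MII minus GV, log2) on the x axis and the prepubertal one on the y axis, both over the 9 arrays and coloured by family. The upper right and the lower left hold 38 genes together, and PPP3CA lies in the lower right, at 3.08 and -2.86.

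Donor age was the other comparison, prepubertal minus adult. Adult ovaries came from an abattoir and prepubertal ovaries were taken with a spay device. Age and the way of collection therefore cannot be told apart, here or in the interaction. At GV, 1 of the 51 genes differed at an unadjusted p under 0.05 (1.96%), against 4.64% of all kept probe sets over the 9 arrays and 2.51% over 12. It was PPP3CA, calcineurin's alpha A subunit. PPP3CA read 9.60 and 7.82 in GV prepubertal oocytes and 3.83 and 2.34 in GV adult oocytes. These GV adult values lie under the filter value. Detection calls were not used, so whether they stood above background was not determined, and the size of the difference is uncertain. GV prepubertal replicate 1 stood at 10.00 and GV adult replicate 1 at 7.64. The ages thus did not overlap on the 6 GV arrays, as for 5.68% of all kept probe sets. The difference was 5.62 over the 9 arrays (SE 1.89, limma unadjusted p = 0.00953, adjusted p = 0.997) and 4.54 over 12 (SE 1.73, unadjusted p = 0.0166, adjusted p = 1). The unadjusted p rose to at most 0.065 and 0.0819 when single arrays were left out of each fit, with differences of 4.73 to 6.51 and 3.41 to 6.05. The 9-array count was 0 without GV prepubertal replicate 2, 3 without any 1 of the other GV oocyte arrays and 2 without MII adult replicate 3. Over 12 arrays it was 0 without GV prepubertal replicate 1 or GV adult replicate 2 and 2 without GV adult replicate 3.

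At MII the ages differed at an unadjusted p under 0.05 for 1 of the 51 genes over the 9 arrays (1.96%, background 2.56%) and for 0 over 12 (background 2.66%). PPP1R42 read 0.79 and 2.99 in prepubertal against 4.57, 5.26 and 7.68 in adult MII oocytes. The difference was -3.95 with no overlap (SE 1.72, limma unadjusted p = 0.0366, adjusted p = 0.9996), and -2.85 without MII prepubertal replicate 2. All these values but 7.68 lie under the filter value. Whether they stood above background was not determined, so the size of the difference is uncertain. Without MII adult replicate 3 the count was 0, without MII adult replicate 2 it was 5 and without GV adult replicate 2 it was 2. Over 12 arrays it was 3 without MII prepubertal replicate 2, 2 without MII prepubertal replicate 3 or MII adult replicate 2, and 1 without MII adult replicate 3. PPP3CA at MII read 7.53 and 4.16 in prepubertal and 7.53, 7.64 and 3.33 in adult MII oocytes, which overlapped (difference -0.32, SE 1.72).

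As a mean of both stages, 1 gene differed by age at an unadjusted p under 0.05 in each fit (1.96%, background 3.61% over 9 arrays and 3.99% over 12). Over the 9 arrays it was DUSP13, an atypical member known from testis and skeletal muscle. DUSP13 read 6.51, 8.19, 7.23 and 8.75 in prepubertal and 4.10, 6.34, 3.97, 7.55 and 2.94 in adult oocytes, higher by 2.65 with an overlap (limma unadjusted p = 0.0463, adjusted p = 0.9997). The adult values 4.10, 3.97 and 2.94 lie under the filter value. Over 12 arrays the gene was PPP3CA (2.61, limma unadjusted p = 0.0457, adjusted p = 0.998). Leaving out 1 array at a time gave 0 to 3 genes over the 9 arrays, 0 without MII prepubertal replicate 2, 3 without GV prepubertal replicate 3, and 2 without GV prepubertal replicate 2, GV adult replicate 2 or 3, or MII adult replicate 2. Over 12 arrays it gave 0 without GV or MII prepubertal replicate 1 or adult replicate 3 of either stage, and 2 without GV adult replicate 1 or MII prepubertal replicate 3. The probe sets used for the catalytic subunits of PP1, PP2A, PP4, PP5 and PP6 showed no age difference at an unadjusted p under 0.05 in the fits over 9 and 12 arrays. PPP1CC has a second, dimmer probe set that did differ. It read 9.74 and 8.32 in GV prepubertal, 4.46 and 1.62 in GV adult, 8.60 and 9.64 in MII prepubertal, and 8.51, 8.95 and 2.70 in MII adult oocytes, low in both GV adult arrays and in MII adult replicate 3. Its age difference as a mean of both stages was 4.19 (limma unadjusted p = 0.00377, adjusted p = 1, no filter), against -0.09 for the probe set used, and the probe sets correlated at -0.312 over the 9 arrays.

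The difference between the maturation changes at the 2 ages was tested as an interaction. PPP3CA was the 1 gene of 51 at an unadjusted p under 0.05 over the 9 arrays (1.96%, background 3.06%), and 0 were over 12 (background 1.21%). The maturation difference of PPP3CA was -2.86 in prepubertal and 3.08 in adult oocytes, an interaction of -5.94 (SE 2.56, limma unadjusted p = 0.0349, adjusted p = 0.999). It was -3.85 over 12 arrays (unadjusted p = 0.131), and leaving out each of the 9 arrays gave -7.62 to -4.26. The adult difference over the 9 arrays started from GV values under the filter value. The count over the 9 arrays was 0 without MII prepubertal replicate 3 or MII adult replicate 1, and 3 without GV prepubertal replicate 3, GV adult replicate 3 or MII adult replicate 2. Over 12 arrays it was 1 without GV adult replicate 1 or 3, or MII adult replicate 2 or 3.

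Other probe sets of the same genes were read as a check, with no filter and over the 9 arrays. Of 16 further probe sets with a mean above the filter, from 14 genes, 12 had the same sign of the mean maturation difference as the probe set used. The further probe set of PPP1R2 was higher in MII by 2.57 (limma unadjusted p = 0.00848). Those of PPP3CC were higher by 1.40 and 0.55 (limma unadjusted p = 0.248 and 0.636), and the latter gave -0.59 in prepubertal oocytes. The further probe set of DUSP10 was higher by 2.61 (unadjusted p = 0.00504), where the one used gave 1.09. For DUSP23 the further probe set gave 0.12, which does not bear out the lower MII values of the one used. For PPP1R16A, a PP1-targeting subunit, the further probe set gave -3.15 (unadjusted p = 0.0141) against 0.21. PPP1R1A, PPP1R42, PPP2CA, PPP2CB, PPP3CA, PPP4R2, PPP4R3B, PPP5C, PPM1B and DUSP7 each had a single probe set.

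Partners of these phosphatases were counted from lists of known regulators, kinases and substrates, chosen with earlier results of these data known. No partner gene passed limma's adjusted threshold for the mean maturation difference over the 9 arrays, and the background at an unadjusted p under 0.05 was again 14.1%. Of 12 kept PP2A regulators and partners, 2 were higher in MII and 0 lower, ENSA and BOD1. ENSA, the M-phase inhibitor of PP2A with B55, read 9.96, 8.21, 1.88 and 12.56 on the GV arrays and 11.99, 11.69, 11.07, 12.77 and 12.14 on the MII arrays. The difference of 3.76 (SE 1.497, limma unadjusted p = 0.0241) rested on the spread of its GV values, which overlapped the MII range. BOD1, an inhibitor of PP2A with B56 at kinetochores, was 12.91 to 13.09 in GV and 13.37 to 14.32 in MII oocytes (difference 0.77, unadjusted p = 0.0353). Of 5 PP1 partners 0 differed at that level in limma over the 9 arrays.

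Of 8 calcineurin regulators and targets, 2 were higher in MII and 0 lower. CHP1, a calcineurin-B-like protein that inhibits calcineurin, was higher by 1.93 (SE 0.66, limma unadjusted p = 0.0106, adjusted p = 0.197). RCAN1, an inhibitor of calcineurin, read at most 5.65 in GV and 5.85 to 7.23 in MII oocytes (difference 2.71, unadjusted p = 0.0250), but 11.77 and 11.93 on the 2 arrays with high cumulus gene signal. Of 9 M-phase kinases, cyclins and CDC25 genes, BUB1B was higher by 1.74 (unadjusted p = 0.0111), and CDC25C and CCNB2 gave -1.84 and -0.88 (unadjusted p = 0.00327 and 0.0476). CDC25C, the phosphatase that activates cyclin-dependent kinase 1, read 11.73 to 12.46 in GV and 9.94 to 10.60 in MII oocytes, with no overlap. Of 9 genes of the MAP kinase cascade that DUSP enzymes oppose, BRAF (3.68, unadjusted p = 0.0039) and MAPK8 (2.55, unadjusted p = 0.0242) were higher and 0 lower. MOS, the oocyte kinase at the head of that cascade, differed by 1.04 with an interval that held 0.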

How the data were processed

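The deposited values are log2 signals of 24128 probe sets on 12 arrays. Per the submitters' processing notes, MAS5 made them, with no version stated. Trimmed of 2% at each end, the linear values averaged 500 on each array, so no further scaling was applied, and detection calls were not used here. Without 112 controls, 24016 probe sets remained, and those with a mean over 12 arrays above the 40th percentile (5.57) were kept (14409).

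A group-means model was fitted in limma 3.58.1 (R 4.3.3) with an intensity trend, over 12 arrays (8 residual degrees of freedom) and over 9 (5 residual degrees of freedom), those whose oocyte marker median exceeded the whole array's by at least 2 log2 units. Adjusted p-values (Benjamini-Hochberg) cover all 14409 probe sets, with a threshold of 0.05, and there were 7 comparisons per fit. Differences are log2 differences between group means, and an SE is limma's. Pools of a group are biological replicates per the labels, which name no animals, so p-values measure the spread between pools. The number of arrays limits the precision.

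Gene symbols came from the platform annotation, and members match the prefixes PPP1 to PPP6 followed by C or R, PPM1, PPME1 and DUSP. Named were, per comparison and fit, up to 6 members in each direction at unadjusted p under 0.05, all catalytic PPP subunits, PPP1R42 and PPP4R3B, and partner genes at unadjusted p under 0.05. The members, lists and alternatives were chosen with earlier results of these data known. Deviations from the group means correlated between same-numbered GV and MII arrays at 0.609, 0.149 and 0.306 in prepubertal oocytes, all above 0.1. In adult oocytes the correlations were -0.105, 0.015 and -0.085. Same-numbered prepubertal and adult GV arrays, from different donors, gave 0.383, -0.021 and 0.381, so such values cannot establish pairs. The 0.609 joins arrays without an oocyte profile that share a high cumulus gene signal. The labels do not give pairs, and the main fits used no block. A letter b in the titles of some GV arrays is not explained by the labels and was not fitted. The alternatives were quantile normalization, centring each array on its median, a filter at the 60th percentile or none, and leaving out each array. Over 12 arrays they were also a pseudocount of 32, no intensity trend, the replicate number as a block and averaging all probe sets of a gene. The fit was tested on simulated data, and figures were drawn with matplotlib 3.10.9 in Python 3.11.15.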

Additional observations from a re-analysis of the deposited data

Results flagged for a closer look

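The maturation difference of PPP3CA, calcineurin's alpha A subunit, differed between the ages. It was -2.86 in prepubertal and 3.08 in adult oocytes over the 9 arrays, and the test of the difference itself, an interaction in limma, gave -5.94 (SE 2.56, unadjusted p = 0.0349, adjusted p = 0.999). It did not pass the adjusted threshold, and 3.06% of all kept probe sets reached an unadjusted p under 0.05 in that test. The values behind it are 2 arrays in 3 of the groups and 3 in MII adult oocytes. Of these values, 3.83 and 2.34 (GV adult), 4.16 (MII prepubertal) and 3.33 (MII adult) lie under the filter value. That they stood above background was not determined, since detection calls were not used. Whether single values stood apart within a group was not examined, since no group had more than 3 arrays.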

How the results depend on the processing

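None of the 37 single-gene results passed limma's adjusted threshold, so staying on that side says little about stability. Of their 564 alternative values 0 turned sign, and 3 passed it, the DUSP7 values given in the report (adjusted p = 0.0491, 0.0468 and 0.0345). All 37 had an unadjusted p under 0.05, which 6 of 25 results over 9 arrays and 4 of 12 over 12 kept whichever array was left out. The 6 were DUSP7, PPP4R3B, PPM1B and PPP1R42 in mean maturation and DUSP7 and PPP1R2 in adult maturation. The 37 were limited to at most 6 genes per direction, comparison and fit. The mean maturation results of PPP5C and PPP2CB over 9 arrays were therefore not among them. Counts moved more, and all below are counts over 12 arrays unless stated. With the replicate number as a block, probe sets past the adjusted threshold went from 0 to 5 (adult maturation), 15 (mean maturation) and 1 (age at MII), and members at unadjusted p under 0.05 from 2 to 4 (adult maturation), 0 to 2 (age at MII) and 1 to 2 (mean age). The block changed no other call by over 1.5 times. The numbers are shared labels, and pairs were not established at either age. Prepubertal maturation gave 4 members with median centring and with no filter. Adult maturation gave 4 with quantile normalization and 1 with no intensity trend, and mean maturation 10 with median centring. With all probe sets of a gene averaged, age at GV gave 2 and mean age 2. Age at MII gave 2 with median centring, 2 with no filter and 1 with no intensity trend, mean age 2 with no filter, and the interaction 1 with no filter. Over 9 arrays, probe sets past the adjusted threshold went from 17 to 0 with median centring and 54 with no filter (adult maturation) and from 104 to 0 with median centring (mean maturation). Members went to 3 with median centring in adult maturation, to 2 with median centring and 3 with no filter for age at MII, to 0 with a filter at the 60th percentile for mean age, and to 0 with median centring and 2 with no filter for the interaction. Leaving out each array gave, over 12 arrays, 1 to 4 members for prepubertal, 1 to 7 for adult and 4 to 9 for mean maturation, 0 to 2, 0 to 3 and 0 to 2 for age at GV, at MII and as a mean, and 0 to 1 for the interaction. Over 9 arrays it gave 1 to 8, 4 to 9 and 6 to 13 for maturation, 0 to 3, 0 to 5 and 0 to 3 for age, and 0 to 3 for the interaction. Probe sets past the adjusted threshold ranged from 0 to 9 for mean maturation over 12 arrays (9 without MII prepubertal replicate 1). Over 9 arrays they ranged from 0 to 5 for prepubertal maturation (5 without MII adult replicate 3), 3 to 69 for adult maturation (3 without MII prepubertal replicate 2, 69 without MII adult replicate 3), 0 to 315 for mean maturation (0 without GV prepubertal replicate 2, 315 without MII adult replicate 3) and 0 to 2 for age at GV. In the other comparisons they stayed at 0. The share of all kept probe sets that read higher in MII in mean maturation over 12 arrays was 44.3% as deposited, 56.1% with quantile normalization and 66.2% with median centring, and for prepubertal maturation over 9 arrays 46.6%, 53.1% and 65.5%. The cause of these shifts was not tested. With 2 or 3 arrays a group and SDs above 1 log2 unit for most genes, small differences were not detectable here.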
